A study of Caenorhabditis elegans with 18 samples.

Results

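Whole Caenorhabditis elegans with the ben-1(e1880) mutation (strain CB3474) were exposed to the benzimidazole oxfendazole (OxBZ) or to its solvent dimethyl sulfoxide (DMSO), and their transcripts were compared by RNA sequencing. The comparison took the 3 OxBZ and the 3 DMSO libraries, 6 of the 18 libraries of the series, and covered 17484 tested genes of the 20395 in the count table. The remaining libraries, 3 each, came from worms exposed to fenbendazole (FBZ), albendazole (ABZ), mebendazole (MBZ) or thiabendazole (TBZ). Every drug was given at 1.13 mM in DMSO for 4 h, DMSO alone served as the control, and all 6 groups carried the ben-1 allele. The worms had been raised at 20 °C in liquid culture with Escherichia coli OP50 for about 70 h to the adult stage according to the protocol, whereas the source label gives mixed larval stages, and these statements were not reconciled. Gene groups of drug metabolism, protein turnover and protein folding, and of lectin, intestinal and neuronal genes, were described with the groups they are usually read beside.

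Benzimidazole anthelmintics bind beta-tubulin and block the growth of microtubules, and loss of the beta-tubulin BEN-1 makes C. elegans resistant to them. Oxfendazole is the sulfoxide of fenbendazole. Nematodes handle foreign compounds in steps: cytochromes P450 and short-chain dehydrogenases oxidise or reduce them, glucuronosyltransferases and glutathione S-transferases attach sugar or glutathione, and ABC transporters export the products, much of this in the intestine. The proteasome degrades proteins tagged with ubiquitin, and in C. elegans the transcription factor SKN-1A raises the genes of its subunits when degradation is impaired.

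Each library held 57010263 to 67277284 counts. All levels below are CPM, the counts of a gene relative to the library total, and 1 read was worth 0.018 CPM in the smallest library. The totals were scaled by the trimmed mean of M-values (TMM), and levels of different genes are not compared because CPM ignores gene length. Whether the replicates of different drugs came from separate cultures is not stated in the labels, so the p-values cover only the spread between these libraries. OxBZ libraries 1 and 2 were closest to each other, with a chi-square of 5 per degree of freedom between their counts, against 36.6 and 43 between each of them and OxBZ library 3. The DMSO pairs differed more, at 143 to 206, and DMSO library 2 lay apart on the first principal component, at -135.6 against -46.5 and -7.1 for the other DMSO libraries. The OxBZ libraries stood together on the second component, at 87.2 to 104.7, and no library of another group was above -4.5. Mitochondrially encoded transcripts made up 0.669% to 0.694% of counts in OxBZ and 0.793% to 1.05% in DMSO, and their part in the results was not tested.

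The gene ben-1 was still transcribed. It had 52.8, 50.6 and 57.9 CPM in the OxBZ libraries, against 56.2, 66.2 and 50.8 CPM in the DMSO libraries. The groups overlapped, and the log2 fold change of ben-1 was -0.10 ± 0.10 (SE; edgeR adjusted p = 0.412). Counts per gene do not show the allele itself, so the level does not check the genotype.

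OxBZ was accompanied by a broad change in transcript levels. Of the genes tested, 3715 rose (21.2%) and 3751 fell (21.5%) against DMSO in edgeR's quasi-likelihood test at a Benjamini-Hochberg adjusted p under 0.05, together 42.7%. Large changes were mostly falls: 574 genes rose at least 2-fold (3.28%) and 2482 fell at least 2-fold (14.2%). The large falls held 33 sperm genes, and no sperm gene passed as lower without DMSO library 2. They also held 32 cuticle collagens. The 2-fold counts were not taken with a library left out. The 3 OxBZ libraries lay above all 3 DMSO libraries in 4617 genes (26.4%) and below all of them in 4173 (23.9%). The median log2 fold change over all tested genes was -0.01. Log2 fold changes are OxBZ minus DMSO unless another drug is named. In whole worms, fewer cells of a type and less RNA per cell cannot be told apart. The counts depended on single libraries. The number of genes that rose was 1921 without OxBZ library 1, 2241 without DMSO library 1 and 2203 without DMSO library 2. The number that fell was 2500, 2397 and 2610 without OxBZ library 1, 2 or 3, and 2630 without DMSO library 2. A fit of the OxBZ and DMSO libraries alone called 2542 genes higher and 1911 lower.

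The 10 largest rises were taken among called genes with a mean of at least 1 CPM in a group and no overlap of libraries. Most belonged to the metabolism and metal gene lists described below: E02C12.10, cyp-35A1, ugt-33, cyp-13A8, cyp-35A3, cdr-1 and dhs-23. The others were ZK697.14 (9.40), F48G7.12 (9.05) and R05D8.9 (8.35). R05D8.9 had 120, 107 and 106 CPM in OxBZ, against 0.216, 0.789 and 0.0324 CPM in DMSO. DMSO held 4 reads of cyp-13A8, 10 of ZK697.14 and 12 of F48G7.12, so their folds rest on few control reads. Among the 10 largest falls were the lectin clec-70, the lipase fil-2, the chemoreceptor-like gene srg-31 (-5.07), dlhd-1 (-5.17), which encodes a dienelactone hydrolase domain, and dod-22 (-5.05), a gene known to act downstream of the insulin pathway factor DAF-16. dod-22 had 0.41, 0.331 and 0.343 CPM in OxBZ, against 12.3, 16.9 and 6.99 CPM in DMSO. Every OxBZ library was below every DMSO library, and dod-22 fell by 5.05 on the log2 scale (SE 0.38; edgeR adjusted p = 3.64e-07).

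**Figure D1:**
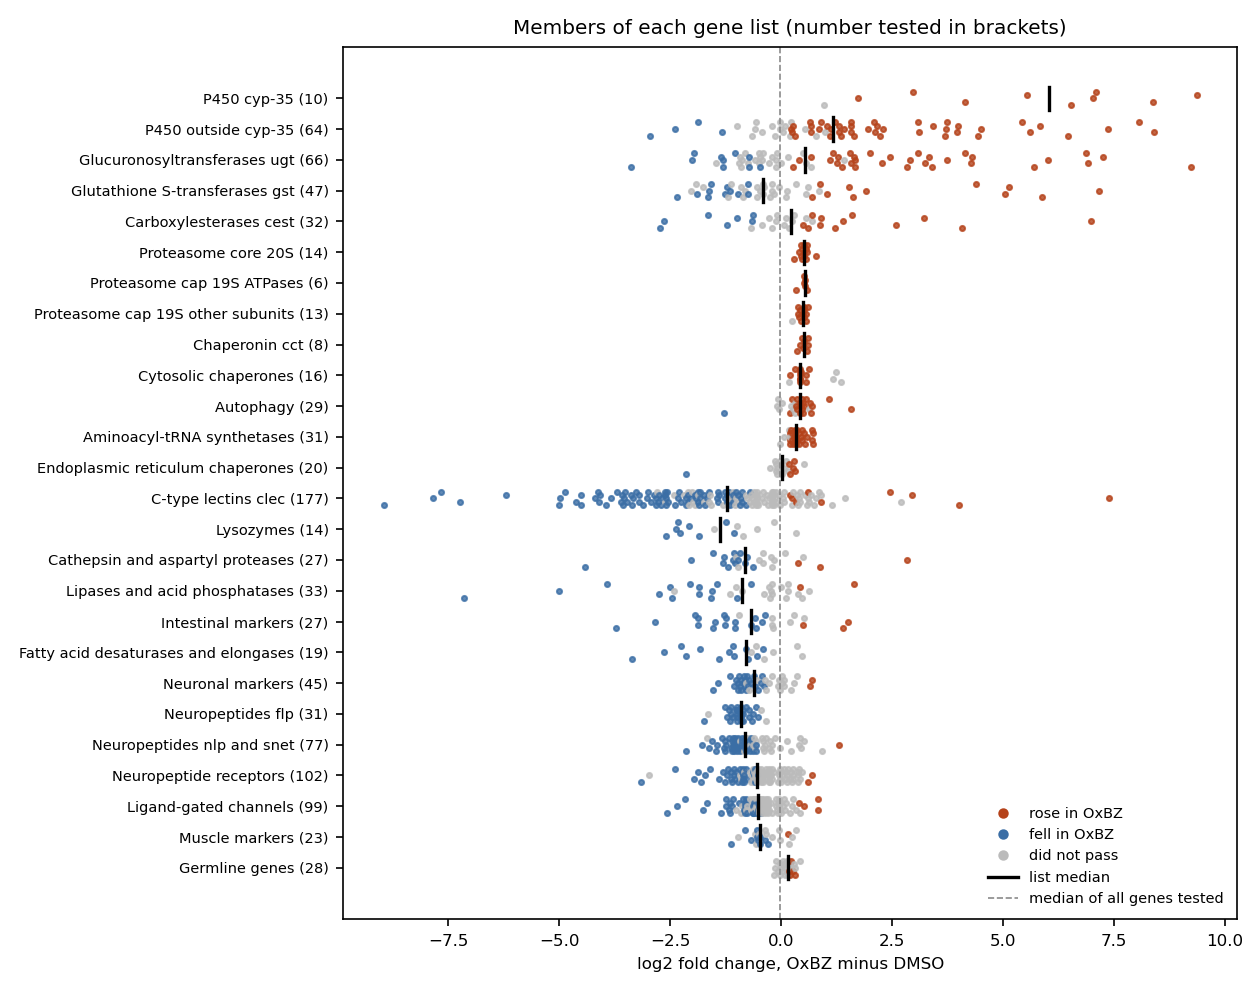
Log2 fold change, OxBZ minus DMSO, of every tested member of 26 gene lists, 1 point per gene, coloured by whether it rose, fell or did not pass the test, with a black bar at the list median and a dashed line at the median of all genes tested (-0.01). The medians of the cyp-35, other P450 and proteasome lists lie to the right of the dashed line. Those of the lectin, lysozyme, lipase and neuropeptide lists lie to its left, and single members of several lists lie on the other side.

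The cytochromes P450 of the cyp-35 family, which C. elegans induces on contact with many foreign compounds, rose almost as a whole. Of its 10 members, 9 rose and none fell, with a median log2 fold change of 6.04. cyp-35A1 had 60.4, 49.4 and 51 CPM in OxBZ, against 0.083, 0.108 and 0.0486 CPM in DMSO. All OxBZ libraries were far above all DMSO libraries, and cyp-35A1 was higher by a log2 fold change of 9.37 ± 0.42 (SE; edgeR adjusted p = 3.15e-09). cyp-35C1 had 396, 359 and 336 CPM in OxBZ, against 7.47, 10.4 and 5.35 CPM in DMSO. The groups were again apart, by 5.55 ± 0.39 (SE; edgeR adjusted p = 2.42e-07). The remaining rises were cyp-35A3 (8.39), cyp-35A5 (7.10), cyp-35B2 (7.04), cyp-35A4 (6.53), cyp-35D1 (4.14), cyp-35A2 (2.98) and cyp-35B1 (1.74). cyp-35B1 had 23.5, 20.8 and 25.2 CPM in OxBZ and 6.69, 3.26 and 10.9 CPM in DMSO. cyp-35B3 alone did not pass, at 0.154, 0.209 and 0.202 CPM in OxBZ and 0.199, 0.0359 and 0.0486 CPM in DMSO (log2 fold change 0.97; edgeR adjusted p = 0.284). Members of the family are similar in sequence, and reads that the counting could have divided between them make single members uncertain.

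The P450 genes outside cyp-35 also mostly rose, 44 of 64 tested, while 4 fell, and their median was 1.17. cyp-14A4 had 61.2, 47.4 and 44.2 CPM in OxBZ, against 0.166, 0.305 and 0.0973 CPM in DMSO. Its OxBZ libraries were all above its DMSO libraries, with a log2 fold change of 8.07 ± 0.54 (SE; edgeR adjusted p = 1.43e-07). cyp-13A6 (7.38), cyp-34A7 (6.47) and cyp-13A4 (5.83) rose as well. cyp-33B1 (-2.96), cyp-25A1 (-2.38), cyp-25A2 (-1.87) and cyp-32B1 (-1.33) fell, so the direction was not uniform across P450 subfamilies. Leaving out any one library left 37 to 42 of these genes higher.

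Among conjugation enzymes, glucuronosyltransferase genes were called higher in a share above that of all genes, and glutathione S-transferase genes in shares close to it. Of the 66 tested glucuronosyltransferase genes, out of 67 in the table, 32 rose and 10 fell (48.5% and 15.2%, beside 21.2% and 21.5% of all genes). The median was 0.54, and 0.26 without DMSO library 2. ugt-33 had 202, 161 and 178 CPM in OxBZ, against 0.332, 0.43 and 0.13 CPM in DMSO. It was high in every OxBZ library and a trace in every DMSO library, a log2 fold change of 9.25 ± 0.45 (SE; edgeR adjusted p = 6.94e-09). ugt-67 (7.27), ugt-9 (6.93), ugt-34 (6.87) and ugt-36 (6.01) rose, and ugt-15 (-3.38), ugt-47 (-2.01) and ugt-6 (-1.95) fell. Among 47 tested glutathione S-transferase genes, out of 49, 11 rose and 11 fell, 23.4% each way beside 21.2% and 21.5% of all genes, and the median was -0.40. gst-5 had 888, 796 and 771 CPM in OxBZ, against 47.3, 47.1 and 22.2 CPM in DMSO. Its groups did not overlap, and the log2 fold change was 4.40 ± 0.28 (SE; edgeR adjusted p = 1.13e-07). gst-33 (7.16), gst-21 (5.88), gst-44 (5.14) and gst-8 (5.05) rose, whereas gst-34 (-2.34) and gst-26 (-1.89) fell. gst-4, the usual reporter of SKN-1 activity, had 12.6, 10.7 and 10 CPM in OxBZ and 26.2, 40.8 and 6.13 CPM in DMSO. Its OxBZ libraries lay within the DMSO range, and it did not pass the test (log2 fold change -1.13; edgeR adjusted p = 0.235).

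Other oxidising and hydrolysing enzymes gave a few very large rises within lists that were otherwise mixed. Among short-chain dehydrogenases, 9 of 30 rose and 3 fell (30% and 10%, beside 21.2% and 21.5% of all genes). Their median was 0.07, and lay between -0.03 and 0.08 with 1 library left out. dhs-23 had 454, 369 and 354 CPM in OxBZ, against 2.59, 1.31 and 0.13 CPM in DMSO. The groups were far apart, by a log2 fold change of 8.19 ± 0.77 (SE; edgeR adjusted p = 3.36e-06), and dhs-14 (3.54) and dhs-8 (3.09) rose while dhs-26 (-1.59) fell. Without DMSO library 2, 5 short-chain dehydrogenases rose. The flavin monooxygenase gene fmo-2 moved the other way, with 8.01, 9.09 and 10 CPM in OxBZ and 136, 42.9 and 236 CPM in DMSO. All DMSO libraries were above the OxBZ libraries, though spread widely, and fmo-2 fell by 3.94 on the log2 scale (SE 0.49; edgeR adjusted p = 4.31e-05). Of 16 tested aldehyde and alcohol dehydrogenase genes, out of 17, 3 rose, among them alh-10 (1.74), and 7 fell, among them alh-12 (-2.29). These shares were 18.8% and 43.8%, beside 21.2% and 21.5% of all genes. adh-1, an alcohol dehydrogenase, fell too, with 255, 286 and 277 CPM in OxBZ and 1010, 697 and 1350 CPM in DMSO.

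Of 32 tested carboxylesterase genes, out of 33, 12 rose and 7 fell (37.5% and 21.9%, beside 21.2% and 21.5% of all genes). Their median was 0.22. cest-35.2 had 155, 135 and 132 CPM in OxBZ, against 1.43, 0.771 and 1.09 CPM in DMSO. Every OxBZ library stood above every DMSO library, with a log2 fold change of 7.0 ± 0.24 (SE; edgeR adjusted p = 2.09e-10). cest-33 (4.08) and cest-32 (3.23) rose, and cest-1.1 (-2.63) fell. The carboxylesterase count was less steady than these genes, since 7 rose without OxBZ library 1 or without DMSO library 2, and 4 or 3 fell without OxBZ library 1 or 2. The median was 0.11 without OxBZ library 3 and -0.02 without DMSO library 2.

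The E02C12 and T16G1 genes, neighbouring families whose products carry a kinase-like domain, held the largest rise of all named genes. Of 13 tested members, out of 15, 7 rose and none fell, with a median of 0.74. E02C12.10 had 582, 488 and 544 CPM in OxBZ, against 0.0332, 0 and 0.0649 CPM in DMSO. DMSO held 6 reads of this gene in all, so its fitted log2 fold change of 13.88 ± 1.19 (SE; edgeR adjusted p = 1.49e-06) rests on very few control reads. E02C12.11 (8.00), E02C12.6 (5.60) and T16G1.4 (3.87) rose. T16G1.6, which DMSO libraries expressed at a measurable level, rose too, with 368, 319 and 335 CPM in OxBZ and 9.80, 10.2 and 9.66 CPM in DMSO (log2 fold change 5.11).

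Among 54 tested ABC transporter genes, out of 56, 16 rose and 14 fell (29.6% and 25.9%, beside 21.2% and 21.5% of all genes). The median was 0.06, and -0.04 without OxBZ library 1 or DMSO library 1. pgp-9, a P-glycoprotein, had 691, 556 and 539 CPM in OxBZ, against 11.8, 25 and 5.40 CPM in DMSO. The OxBZ libraries were all above the DMSO libraries, by a log2 fold change of 5.40 ± 0.56 (SE; edgeR adjusted p = 7.96e-06). pgp-5 (2.69), haf-7 (2.38) and pgp-7 (1.85) rose, and pmp-5 (-2.03), pgp-11 (-1.96) and haf-9 (-1.93) fell. The number of ABC transporters that fell was 9, 8 and 8 without OxBZ library 1, 2 or 3, 7 without DMSO library 2, and 6 in the fit of the OxBZ and DMSO libraries alone.

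Genes of the response to cadmium and other metals moved both ways. In the list of 14 tested genes, out of 15, 7 rose and 2 fell (50% and 14.3%, beside 21.2% and 21.5% of all genes), with a median of 0.78. Without DMSO library 1, 4 rose and the median was 0.39, and without DMSO library 3 the median was 1.43. The cadmium-responsive gene cdr-1 had 162, 137 and 138 CPM in OxBZ, against 0.415, 0.646 and 0.389 CPM in DMSO. Its groups were far apart, by 8.24 ± 0.34 (SE; edgeR adjusted p = 1.54e-09). The related cdr-4 (4.37) and the metallothionein gene mtl-2 (1.51) rose, and mtl-1 had a log2 fold change of 0.39 that did not pass. Without DMSO library 3, mtl-1 passed as higher (2.47; edgeR adjusted p = 0.0169). The ferritin gene ftn-1, which stores iron, had 3.70, 6.13 and 7.49 CPM in OxBZ and 41, 34.1 and 49.9 CPM in DMSO. All OxBZ libraries were below all DMSO libraries, and ftn-1 fell by 2.85 on the log2 scale (SE 0.33; edgeR adjusted p = 2.2e-05). smf-3, a divalent metal transporter, also fell (-1.54).

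The nuclear hormone receptor genes, which include regulators of P450 genes, were called in both directions. Of 229 tested, out of 273, 35 rose and 38 fell (15.3% and 16.6%, beside 21.2% and 21.5% of all genes), 14 of them at least 2-fold in each direction. The median was 0.04, and it fell below 0 without OxBZ library 1, OxBZ library 3, DMSO library 1 or DMSO library 2, to as low as -0.08. nhr-237 (3.07) and nhr-142 (2.75) were among the rises, and nhr-99 (-3.20) and nhr-55 (-3.15) among the falls. The number that rose was 22 without OxBZ library 1, 17 without DMSO library 2 and 18 in the fit of the OxBZ and DMSO libraries alone.

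**Figure D2:**
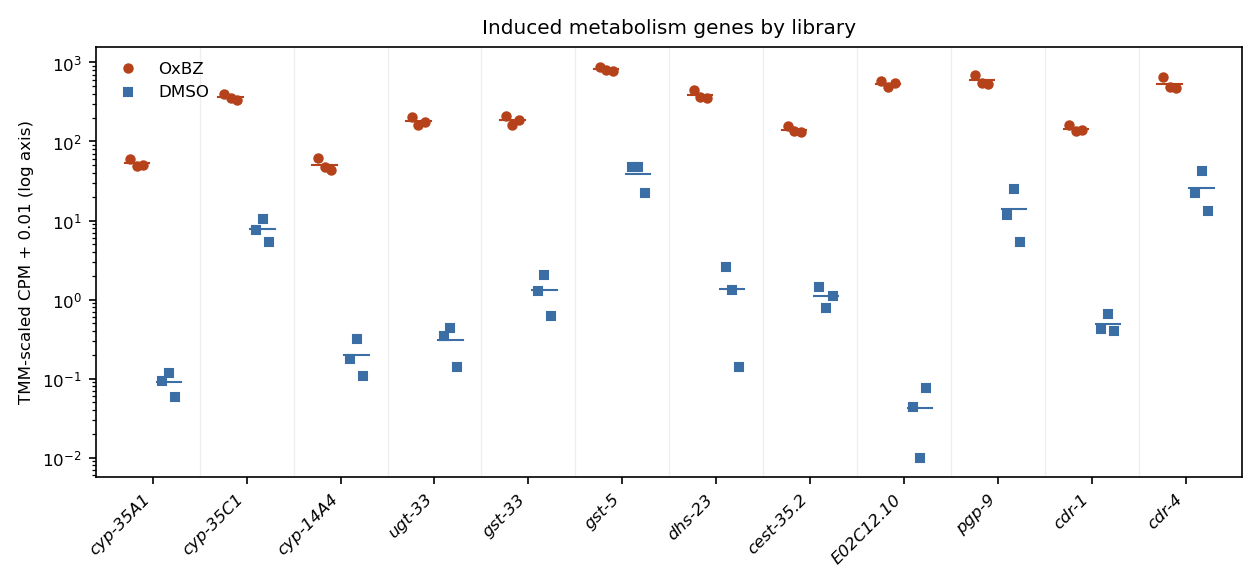
TMM-scaled CPM of 12 metabolism genes in each OxBZ library (circles) and DMSO library (squares), on a log axis with the small constant given in its label added to show a library with no read; horizontal lines are group means. In all 12 genes the 3 OxBZ libraries lie above the 3 DMSO libraries, for cyp-35A1 at 49.4 to 60.4 CPM against 0.0486 to 0.108 CPM.

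The subunits of the proteasome nearly all rose, each by less than 2-fold. All 14 genes of its proteolytic core rose (median 0.51), as did all 6 ATPases of the regulatory cap (median 0.54) and 12 of the 13 other cap subunits (median 0.49), and none fell. The subunits that rose did so by different amounts, from 0.30 ± 0.07 for pas-7 to 0.78 ± 0.06 for pbs-2 (log2 fold change, SE). pbs-2, a beta subunit of the core, had 269, 268 and 233 CPM in OxBZ, against 147, 159 and 143 CPM in DMSO. The groups did not overlap, with a log2 fold change of 0.78 ± 0.06 (SE; edgeR adjusted p = 7.05e-07). rpn-10, a ubiquitin receptor of the cap, had 194, 189 and 166 CPM in OxBZ, against 120, 127 and 114 CPM in DMSO. It was higher in every OxBZ library, by 0.60 ± 0.06 (SE; edgeR adjusted p = 4.78e-06). rpt-4, a cap ATPase, had 329, 319 and 273 CPM in OxBZ and 197, 223 and 191 CPM in DMSO, again without overlap. rpn-6.2 was the subunit that did not pass, with 28.2, 29.6 and 23.7 CPM in OxBZ and 18.0, 30.6 and 20.2 CPM in DMSO (log2 fold change 0.25; edgeR adjusted p = 0.299). Summed over the core, levels were 3480, 3380 and 2930 CPM in OxBZ and 2210, 2390 and 2250 CPM in DMSO. Leaving out any one library left 13 or 14 core subunits, 5 or 6 cap ATPases and 12 other cap subunits higher. pas-7 and rpt-1 lost their calls when a library was left out. pas-7 had a log2 fold change of 0.18 without OxBZ library 1 (edgeR adjusted p = 0.0892) and 0.16 without DMSO library 1 (edgeR adjusted p = 0.0917). rpt-1 had 0.23 without OxBZ library 1 (edgeR adjusted p = 0.0546) and 0.19 without DMSO library 1 (edgeR adjusted p = 0.0619).

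**Figure D3:**
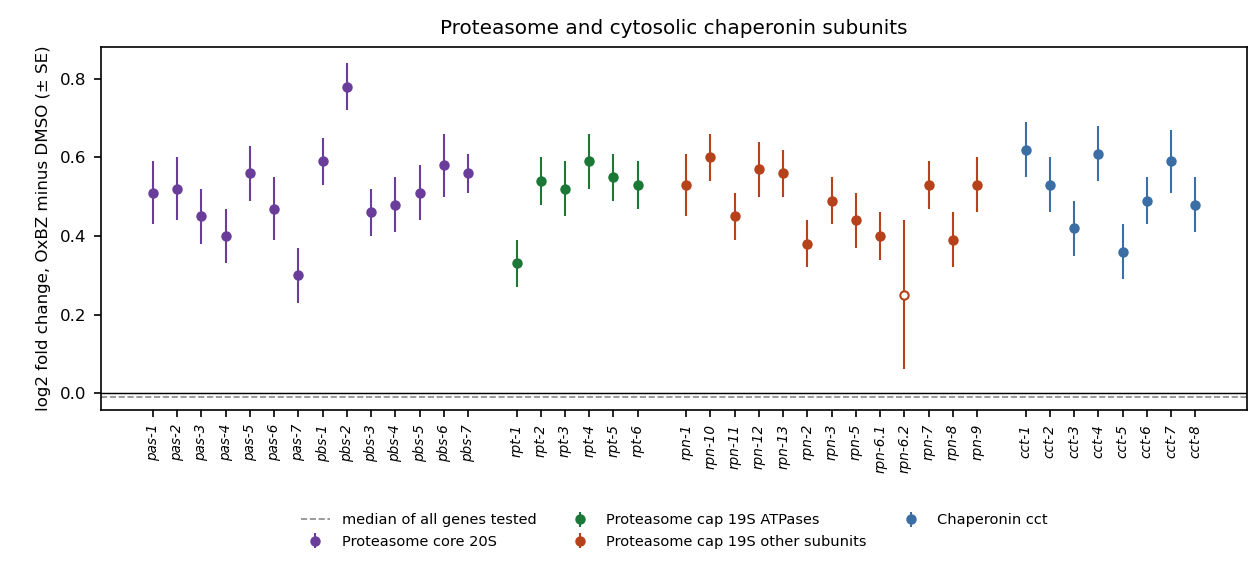
Log2 fold change, OxBZ minus DMSO, with its SE for each proteasome core subunit, cap ATPase, other cap subunit and cytosolic chaperonin (cct) subunit; filled points passed the test and the open point, rpn-6.2, did not. All points lie above 0, and the medians of the 4 sets are 0.49 to 0.54, against -0.01 for all genes tested (dashed line).

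Genes that deliver substrates to the proteasome or control its supply were raised in part. Of 18 tested, 13 rose and none fell (median 0.33), and 8 rose without OxBZ library 1, while the median was 0.21 without DMSO library 1. rad-23, which carries ubiquitinated proteins to the cap, had 345, 329 and 296 CPM in OxBZ, against 208, 227 and 209 CPM in DMSO. The groups were separate, by 0.59 ± 0.06 (SE; edgeR adjusted p = 3.42e-06). aip-1 (0.70), an arsenite-inducible partner of the proteasome, usp-14 (0.54), a deubiquitinating enzyme of the cap, and ddi-1 (0.50), the protease that processes SKN-1A, also rose. The transcript of skn-1 itself did not pass, at a log2 fold change of 0.08 (edgeR adjusted p = 0.297), nor did png-1 (0.13) and sel-11 (0.08), which act on the SKN-1A protein.

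The cytosolic folding machinery rose, whereas inducible heat shock genes were variable. All 8 subunits of the cytosolic chaperonin, which folds actin and tubulin, rose, with log2 fold changes of 0.36 (cct-5) to 0.62 (cct-1). Of 16 other cytosolic chaperone genes, 12 rose and none fell (median 0.44). hsp-1, the constitutive Hsp70, had 3670, 3530 and 3090 CPM in OxBZ, against 2310, 2590 and 2040 CPM in DMSO. hsp-90 had 3510, 3270 and 2970 CPM in OxBZ, against 2410, 2490 and 2230 CPM in DMSO. Neither gene's groups overlapped, and the log2 fold changes were 0.57 ± 0.11 for hsp-1 (SE; edgeR adjusted p = 0.0011) and 0.45 ± 0.08 for hsp-90 (SE; edgeR adjusted p = 0.00096). The heat-inducible hsp-70 (1.17; edgeR adjusted p = 0.173) and the small heat shock gene hsp-16.2 (0.82; edgeR adjusted p = 0.266) did not pass, and hsp-70 passed as higher without DMSO library 3 (2.34; edgeR adjusted p = 0.0171). Among 17 small heat shock protein genes, 2 rose and 5 fell (11.8% and 29.4%, beside 21.2% and 21.5% of all genes), and the median was 0.36. Those that fell included hsp-12.3 (-1.04), hsp-12.2 (-0.78) and hsp-25 (-0.45), and 3 fell without OxBZ library 1 or OxBZ library 3. None rose without OxBZ library 1, DMSO library 1 or DMSO library 2, 1 rose without OxBZ library 2 or 3 or with unscaled totals, and 4 rose with DESeq2.

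Stress genes of the organelles moved little. hsp-4, the endoplasmic reticulum chaperone BiP and a reporter of the unfolded protein response, had 366, 351 and 324 CPM in OxBZ and 374, 437 and 299 CPM in DMSO. The groups overlapped and hsp-4 did not pass (log2 fold change -0.09; edgeR adjusted p = 0.708). Of 20 endoplasmic reticulum chaperone genes, 5 rose and 1 fell (25% and 5%, beside 21.2% and 21.5% of all genes). The median was 0.02, and -0.01 with unscaled library totals. That count of rises was 1 without OxBZ library 1 or DMSO library 1 and 3 without OxBZ library 2, DMSO library 2 or DMSO library 3. hsp-6, the mitochondrial Hsp70, did not pass (0.08; edgeR adjusted p = 0.489). In the list of 14 mitochondrial chaperones and proteases 6 rose and 1 fell (42.9% and 7.14%, beside 21.2% and 21.5% of all genes). The median of this list was 0.19, and 2 of its genes rose without OxBZ library 1 (median 0.07) and 1 without DMSO library 1 (median 0.08).

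Autophagy genes rose in larger part, 19 of 29, with 1 lower (median 0.43), and 11 rose without DMSO library 2 (median 0.25). sqst-1, the homologue of the ubiquitin-binding autophagy receptor p62, had 459, 434 and 424 CPM in OxBZ, against 144, 99 and 201 CPM in DMSO. The OxBZ libraries were closely grouped above all DMSO libraries, by 1.57 ± 0.27 (SE; edgeR adjusted p = 0.000479). epg-9 (1.08), lgg-1 (0.69), which encodes the ubiquitin-like protein of the autophagosome membrane, and bec-1 (0.67) rose, and sqst-2 (-1.28) fell. Enzymes of glutathione and thioredoxin metabolism were mixed, with 8 of 25 higher and 3 lower (median 0.11). These shares were 32% and 12%, beside 21.2% and 21.5% of all genes. Glutathione reductase gsr-1 (0.54) and superoxide dismutase sod-1 (0.54) rose, while catalase ctl-2 (-0.73) fell. The number higher was 4 without OxBZ library 1, DMSO library 1 or DMSO library 2 and 5 without OxBZ library 2, and 5 were lower without DMSO library 1.

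Of 31 aminoacyl-tRNA synthetase genes, which charge tRNAs for translation, 27 rose and none fell (median 0.33). sars-1, the seryl-tRNA synthetase, had 344, 326 and 315 CPM in OxBZ, against 200, 189 and 205 CPM in DMSO. The groups were apart by 0.73 ± 0.06 (SE; edgeR adjusted p = 3.72e-07), and gars-1 (0.73) and nars-1 (0.71) rose by about as much. Without OxBZ library 1, or without DMSO library 1, 15 of these genes rose. Genes of the cytosolic ribosome moved less: 10 of 82 rose and 2 fell (12.2% and 2.44%, beside 21.2% and 21.5% of all genes). Their median was 0.09. Single libraries took the number of rises from 2 without OxBZ library 1 to 33 without OxBZ library 3. Without OxBZ library 2, DMSO library 1, DMSO library 2 or DMSO library 3 it was 5, 3, 5 and 5. Of 69 mitochondrial ribosomal protein genes 44 rose (median 0.23), but 7, 24, 9 and 19 did so without OxBZ library 1, OxBZ library 2, DMSO library 1 and DMSO library 2. The median was 0.13 without OxBZ library 1 and 0.12 without DMSO library 1.

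C-type lectins, secreted or membrane proteins with sugar-binding domains, many of them made in the intestine and altered on infection, were mostly lower. Of 177 tested, out of 240 in the table, 89 fell and 9 rose, with a median of -1.21, and 82 of the falls were at least 2-fold. clec-70 had 0.751, 0.801 and 0.498 CPM in OxBZ, against 90.7, 183 and 33.2 CPM in DMSO. All OxBZ libraries were below all DMSO libraries, and clec-70 fell by 7.23 on the log2 scale (SE 0.83; edgeR adjusted p = 2.08e-05). A few lectins went the other way. clec-206 had 20.9, 18.1 and 13.9 CPM in OxBZ, against 0.149, 0.161 and 0 CPM in DMSO. Its groups did not overlap (log2 fold change 7.40 ± 0.59, SE; edgeR adjusted p = 7.39e-07), and clec-210 (4.01) and clec-190 (2.45) rose too. Summed over the list, lectin levels were 4790, 4900 and 4660 CPM in OxBZ and 6870, 7540 and 6590 CPM in DMSO. Leaving out any one library left 63 to 88 lower, and the fit of the OxBZ and DMSO libraries alone left 55 of 144. Of the 12 galectin genes, 6 fell and 3 rose (50% and 25%, beside 21.5% and 21.2% of all genes), and the median was -0.41. lec-9 had 43.8, 44.4 and 41.1 CPM in OxBZ, against 148, 248 and 132 CPM in DMSO, and lec-10 (-1.48) and lec-8 (-1.0) fell as well. lec-12 rose (1.02), with all OxBZ libraries above all DMSO libraries.

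Genes for digestion and for killing bacteria in the gut were lower in OxBZ. Of 14 tested lysozyme genes, out of 16, 8 fell and none rose (median -1.37). lys-1 had 132, 143 and 122 CPM in OxBZ, against 740, 988 and 658 CPM in DMSO. The groups were widely apart, and lys-1 fell by 2.59 on the log2 scale (SE 0.36; edgeR adjusted p = 0.000108). lys-4 (-2.31), lys-10 (-2.37) and lys-8 (-1.05) fell, and lys-7 had a log2 fold change of -0.98 that did not pass (edgeR adjusted p = 0.157). Saposin-like proteins, which open membranes, were lower in 11 and higher in 4 of 25 tested genes, out of 30 (median -0.44). spp-23 (-2.70), spp-18 (-2.13) and spp-1 (-1.57) fell. Without OxBZ library 1, 2 or 3 or DMSO library 2, 2 of these genes rose, and without OxBZ library 3 the median was -0.70. spp-17 rose, at 122, 128 and 113 CPM in OxBZ and 7.87, 11.8 and 14.3 CPM in DMSO.

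Of 27 tested cathepsin and aspartyl protease genes, out of 29, 14 fell and 3 rose (median -0.80). asp-1, an aspartyl protease of the intestine, had 1340, 1330 and 1140 CPM in OxBZ, against 3660, 3940 and 3330 CPM in DMSO. The groups were separate, and asp-1 fell by 1.52 on the log2 scale (SE 0.14; edgeR adjusted p = 2.5e-06). cpr-4, a cathepsin B-like protease, had 236, 265 and 240 CPM in OxBZ and 1020, 1390 and 625 CPM in DMSO. cpr-2 (-4.42), asp-5 (-1.30) and asp-13 (-1.29) fell as well. None of these proteases rose without OxBZ library 1 or DMSO library 2, and 1 rose without OxBZ library 2, OxBZ library 3 or DMSO library 1. Of 33 tested lipase and acid phosphatase genes, out of 36, 14 fell and 2 rose (median -0.87). Without DMSO library 1 the median was -0.30, and without OxBZ library 1, 1 rose. lipl-3, a lysosomal lipase induced by fasting, had 1.67, 1.58 and 2.34 CPM in OxBZ, against 68.1, 48.6 and 63.1 CPM in DMSO. It was low in every OxBZ library, and fell by 5.0 on the log2 scale (SE 0.33; edgeR adjusted p = 1.43e-07). lipl-1 (-3.92), fil-2 (-7.14), a second fasting-induced lipase, and the acid phosphatase pho-1 (-2.49) fell, and lips-10 rose (1.65).

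Structural and transport genes that mark the intestine fell with the digestive enzymes. Of 27 intestinal markers, 17 fell and 3 rose, and their median was -0.68. pept-1, the intestinal peptide transporter, was below DMSO in all OxBZ libraries and fell by 2.83 on the log2 scale (SE 0.42; edgeR adjusted p = 0.000167). The intermediate filament genes ifc-1 (-3.72) and ifb-2 (-1.94), the sodium-proton exchanger nhx-2 (-1.87) and the microvillar actin act-5 (-1.26) fell. nhx-2 had 15.8, 16.9 and 14.7 CPM in OxBZ and 54.9, 80.7 and 37.7 CPM in DMSO. elt-2, the GATA factor that sets intestinal identity, fell less, with 23, 21.5 and 24.1 CPM in OxBZ and 34.3, 35 and 40.5 CPM in DMSO. Its groups did not overlap, and the log2 fold change was -0.68 ± 0.11 (SE; edgeR adjusted p = 0.000338). The related elt-7 was at 0.30 and did not pass, and gem-4 rose (1.41). Summed over the 27 markers, levels were 3910, 3880 and 3650 CPM in OxBZ and 7770, 9240 and 6960 CPM in DMSO. The fit of the OxBZ and DMSO libraries alone called 11 of the markers lower.

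Enzymes that build unsaturated and branched fatty acids fell without a rise among them, 13 of 19 (median -0.78). elo-2, a palmitate elongase, had 60, 61.8 and 59.8 CPM in OxBZ, against 258, 423 and 190 CPM in DMSO. Its OxBZ libraries were nearly level and all below DMSO, and the log2 fold change was -2.26. elo-6 (-2.15), elo-5 (-1.83) and the desaturases fat-3 (-1.40) and fat-2 (-1.18) fell, whereas fat-6 (-0.18) and fat-7 (0.47), the stearoyl-CoA desaturases, did not pass. Without DMSO library 2, fat-7 passed as higher (1.37; edgeR adjusted p = 0.0238). Of 64 genes of fatty acid activation and oxidation, 24 fell and 14 rose (37.5% and 21.9%, beside 21.5% and 21.2% of all genes). The share that rose was thus close to that of all genes, and the median was -0.25. acdh-2 (3.21) and acs-2 (2.0) rose, and cpt-5 (-3.12), ech-9 (-2.87) and acox-1.5 (-2.59) fell. The number of rises was 7 without OxBZ library 1 or DMSO library 1 and 9 without DMSO library 2, when the median was -0.41. None of the 7 vitellogenin and yolk receptor genes passed. Their median was 0.25, the value of the yolk receptor gene rme-2, and vit-3 (1.82), vit-4 (1.03) and vit-5 (0.31) lay above 0 while vit-1 (-1.01), vit-6 (-0.70) and vit-2 (-0.62) lay below it. In 2 of the 7, all OxBZ libraries were above all DMSO libraries, and in none were they all below. vit-3 passed as higher with DESeq2 (adjusted p = 0.0451) and in the edgeR fit of the OxBZ and DMSO libraries alone (adjusted p = 0.034), rme-2 did with unscaled totals (edgeR adjusted p = 0.0444), and the median of the list was 0.05 without DMSO library 3. The vitellogenin genes are near copies of each other, so single members are uncertain.

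Neuronal genes were lower, the peptide signalling genes most evenly. Of 45 tested pan-neuronal and neuron class markers, out of 46, 26 fell and 2 rose (median -0.61). rab-3, a synaptic vesicle GTPase, had 7.42, 7.31 and 7.68 CPM in OxBZ, against 13.5, 10.3 and 9.89 CPM in DMSO. The groups did not overlap, and rab-3 fell by 0.59 on the log2 scale (SE 0.12; edgeR adjusted p = 0.0017). eat-4, the vesicular glutamate transporter, had 1.6, 1.11 and 1.84 CPM in OxBZ and 3.69, 2.96 and 2.85 CPM in DMSO. The synaptotagmin gene snt-1 (-0.80), the choline acetyltransferase gene cha-1 (-0.83) and mec-3 (-1.53), a regulator of touch neuron fate, fell, and unc-64 (-0.06) did not pass. The 2 rises were snb-1 (0.65), the vesicle synaptobrevin, and unc-18 (0.69), which binds syntaxin. unc-18 had 102, 91.2 and 93.6 CPM in OxBZ, against 63.8, 57.5 and 57.1 CPM in DMSO, without overlap. Summed over the markers the difference was smaller than for most single genes, at 1450, 1450 and 1430 CPM in OxBZ and 1670, 1530 and 1700 CPM in DMSO.

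Among the markers that fell were genes with known roles in neuropeptide release and processing. ida-1, a membrane protein of dense core vesicles, had 48.0, 50.9 and 45.2 CPM in OxBZ, against 101, 84.7 and 96.6 CPM in DMSO. The OxBZ libraries were all lower, by 0.97 on the log2 scale (SE 0.10; edgeR adjusted p = 6.87e-06). egl-3, the proprotein convertase that cleaves neuropeptide precursors, had 87.4, 87.6 and 71.1 CPM in OxBZ and 157, 133 and 174 CPM in DMSO. egl-21 (-0.96), the carboxypeptidase that trims the cut peptides, and sbt-1 (-0.78), a helper protein of EGL-3, fell as well.

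Of 31 FMRFamide-like (flp) genes, 28 fell and none rose, with a median of -0.91. flp-28 had 21, 23.3 and 18.6 CPM in OxBZ, against 50.1, 41.4 and 49 CPM in DMSO. Its groups were apart, by a log2 fold change of -1.16 ± 0.10 (SE; edgeR adjusted p = 1.31e-06). flp-34 (-1.74), flp-7 (-1.25), flp-20 (-1.22) and flp-15 (-1.15) fell, and flp-13, flp-17 and flp-23 did not pass, though without DMSO library 2 both flp-13 (-0.54; edgeR adjusted p = 0.02) and flp-17 (-0.70; edgeR adjusted p = 0.0357) did. Summed over the family, levels were 259, 270 and 247 CPM in OxBZ and 493, 424 and 542 CPM in DMSO. Of 77 tested neuropeptide-like (nlp and snet) genes, out of 78, 48 fell and 1 rose (median -0.81). nlp-12, a cholecystokinin-like peptide gene, had 6.16, 5.49 and 4.94 CPM in OxBZ, against 19.6, 14.1 and 17.3 CPM in DMSO. It was lower in every OxBZ library, by 1.62 on the log2 scale (SE 0.17; edgeR adjusted p = 1.13e-05). nlp-51 (-2.15), nlp-79 (-1.56) and nlp-69 (-1.46) fell, and the gene that rose was nlp-29, an antimicrobial peptide gene of the epidermis (1.32; edgeR adjusted p = 0.0288). That call held without DMSO library 3 and ended without any other library, with edgeR adjusted p of 0.0524 to 0.12. Of 34 tested insulin-like peptide genes, out of 39, 14 fell and none rose (median -0.68), among them ins-35 (-2.70) and ins-33 (-2.37). The insulin-like count was 9, 9 and 8 without OxBZ library 1, 2 or 3 and 8 without DMSO library 3.

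Receptors and channels of neurons fell in smaller shares. These were 34.3% of neuropeptide receptors, 33.3% of ligand-gated channels and 39.7% of potassium channels, beside 21.5% of all genes. Among 102 tested neuropeptide receptor genes, out of 106, 35 fell and 2 rose (median -0.53), and none rose without OxBZ library 1, OxBZ library 2, DMSO library 1 or DMSO library 3. npr-20 had 2.42, 2.94 and 2.13 CPM in OxBZ, against 11, 6.78 and 8.50 CPM in DMSO, without overlap (log2 fold change -1.81). Of 99 tested ligand-gated channel genes, out of 107, 33 fell and 4 rose (median -0.52). acr-18 (0.83) and acr-12 (0.84), subunits of acetylcholine receptors, rose, and acr-25 (-2.34) fell. Of 68 potassium channel genes, 27 fell and 1 rose (median -0.48), with twk-10 (-3.32) and twk-25 (-1.37) among the falls. Many of these genes had few reads. The fit of the OxBZ and DMSO libraries alone called 19 of 100 receptors, 7 of 94 ligand-gated channels and 9 potassium channels lower. It called 1911 of 16310 genes lower in all, so the share of ligand-gated channels was below that of all genes. Under any one library left out, the 3 counts stayed at 24 to 35, 22 to 33 and 21 to 27.

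**Figure D4:**
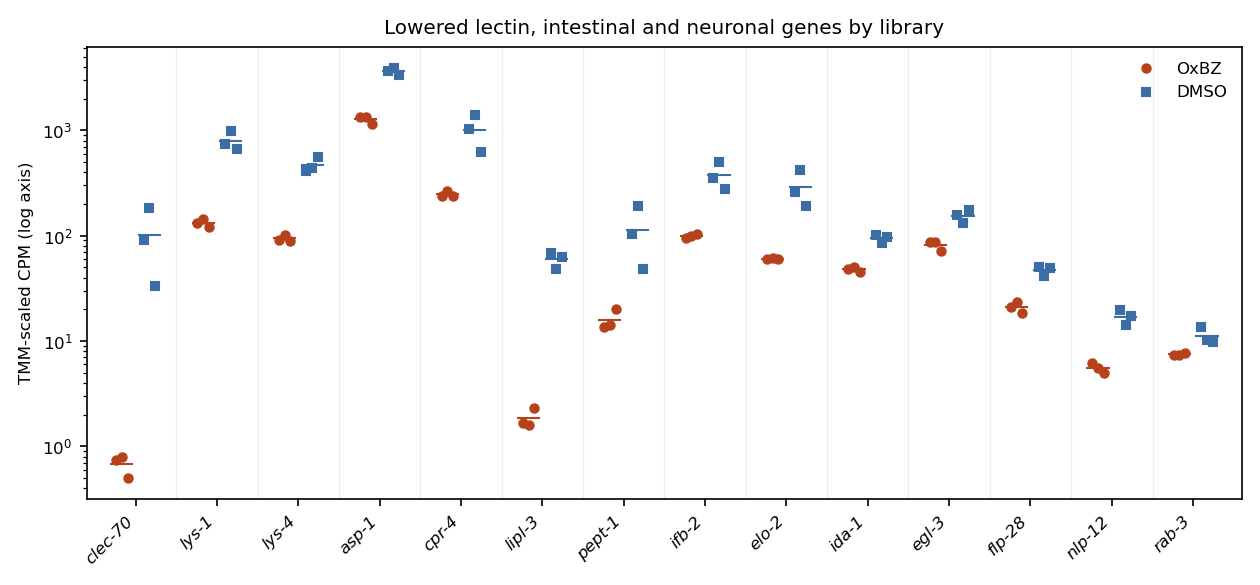
TMM-scaled CPM of 14 lectin, intestinal and neuronal genes in each OxBZ library (circles) and DMSO library (squares) on a log axis, with horizontal lines at group means. In every gene the OxBZ libraries lie below the DMSO libraries, from clec-70, at 0.498 to 0.801 CPM against 33.2 to 183 CPM, to rab-3, at 7.31 to 7.68 CPM against 9.89 to 13.5 CPM.

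Markers of other tissues moved beside these lists, and their part in the results was not tested. Of 23 body wall muscle markers 10 fell and 1 rose (median -0.47), with summed levels of 10500, 10300 and 9230 CPM in OxBZ and 12100, 15200 and 11500 CPM in DMSO. myo-3, a body wall myosin, fell (-0.80; -0.81 with edgeR adjusted p = 0.0572 in the fit of the OxBZ and DMSO libraries alone), and unc-54, the main body wall myosin, did not pass (-0.50; edgeR adjusted p = 0.373). Without OxBZ library 2, 6 muscle markers fell, and 5 did in the fit of the OxBZ and DMSO libraries alone. Of 16 pharynx markers 9 fell and none rose (median -0.97), with sums of 348, 350 and 307 CPM in OxBZ and 804, 710 and 578 CPM in DMSO. The pharyngeal myosin gene myo-1 had 66.8, 61.9 and 40.0 CPM in OxBZ, against 183, 197 and 124 CPM in DMSO, and myo-2 fell as well (-1.31). Of 169 tested cuticle collagens, out of 176, 35 fell and none rose. The share that fell, 20.7%, was close to the 21.5% of all genes, and the count was 17, 21, 19 and 56 without OxBZ library 1, OxBZ library 2, DMSO library 2 and DMSO library 3, 16 in the fit of the OxBZ and DMSO libraries alone and 53 with DESeq2. The collagen median was -1.20, and -0.35 without DMSO library 2.

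The sperm gene calls rested on DMSO library 2. Their summed level was 1070, 1020 and 440 CPM in OxBZ and 879, 5890 and 1510 CPM in DMSO, so the groups overlapped. Of 76 tested, out of 80, 33 passed as lower and 1 as higher (median -1.87), but without DMSO library 2 none passed as lower and the median was -0.72. The number lower was 5, 7 and 2 without OxBZ library 1, 2 or 3, 68 without DMSO library 1, 0 in the fit of the OxBZ and DMSO libraries alone and 62 with DESeq2. Of 28 germline genes 5 rose (median 0.16), a share of 17.9% that was below the 21.2% of all genes. Their sums were 7870, 7590 and 6570 CPM in OxBZ and 6440, 7150 and 5910 CPM in DMSO. No germline gene rose without OxBZ library 1, OxBZ library 2 or DMSO library 1. Without DMSO library 2 or DMSO library 3, 2 and 3 rose. Of 22 oocyte and eggshell genes 7 rose and 2 fell (31.8% and 9.09%, beside 21.2% and 21.5% of all genes). Their median was 0.21, and 2 rose without OxBZ library 1 or DMSO library 1. Without OxBZ library 2 or DMSO library 3, 1 fell, and without OxBZ library 3 none did.

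The tubulin genes, whose family includes the drug's target, were raised in part. Of 16 tubulin genes, 7 rose and 2 fell, with a median of 0.25 that was 0.09 without OxBZ library 3. tbb-6, a stress-responsive beta-tubulin gene, had 115, 101 and 99.2 CPM in OxBZ, against 2.49, 5.88 and 2.29 CPM in DMSO. Its groups were far apart, by a log2 fold change of 4.88 ± 0.56 (SE; edgeR adjusted p = 2.2e-05). tba-7 (1.41), the broadly expressed beta-tubulins tbb-1 (0.55) and tbb-2 (0.52) and alpha-tubulins tba-1 (0.52) and tba-2 (0.42), and the gamma-tubulin tbg-1 (0.28) rose. The touch neuron tubulins mec-12 (-0.78) and mec-7 (-0.43) fell, and mec-7 lost its call without OxBZ library 1 (-0.36; edgeR adjusted p = 0.0709) or OxBZ library 2 (-0.40; edgeR adjusted p = 0.086). ben-1, tba-4, tba-5, tba-6, tba-8, tba-9 and tbb-4 did not pass.

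**Figure D5:**
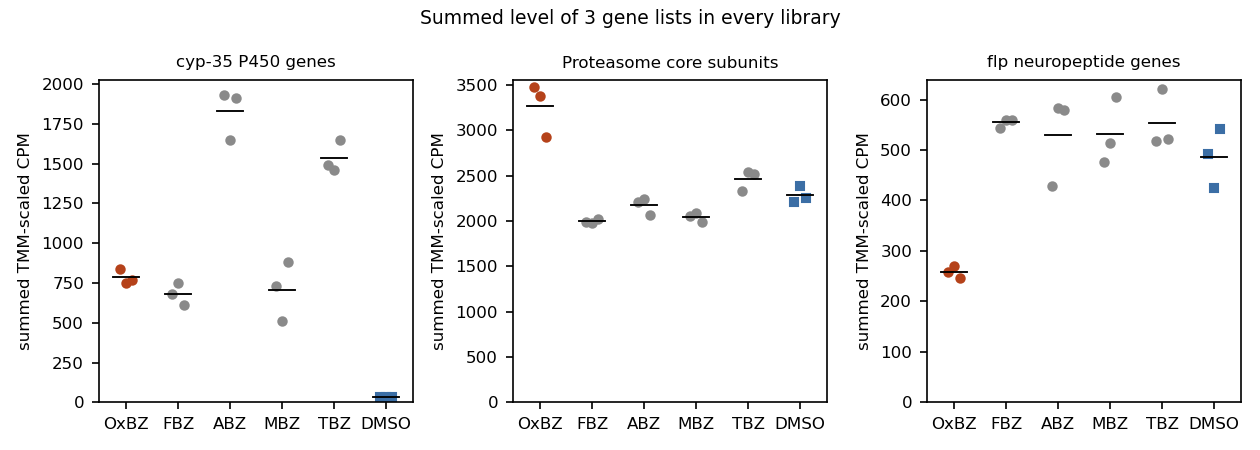
Summed TMM-scaled CPM of the cyp-35 genes, the proteasome core subunits and the flp neuropeptide genes in every library of the 6 groups, OxBZ at the left and DMSO at the right, with a line at each group mean. The core is highest in the OxBZ libraries (2930 to 3480 CPM), and flp genes are lowest there (247 to 270 CPM), while cyp-35 levels are highest in ABZ (1650 to 1930 CPM) and lie at 747 to 838 CPM in OxBZ.

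OxBZ was also set directly against each of the other 4 drugs at the same dose and time, with p-values adjusted over all genes and the 4 pairs together. The pairs share the OxBZ libraries. Against FBZ, which differs from OxBZ by the oxygen on sulfur, 5160 genes were higher in OxBZ (29.5%) and 5000 lower (28.6%). The FBZ libraries stood apart on the first principal component, at 117.9 to 125.6, where no library of another group was above 40.9. Summed sperm gene levels were 151 to 187 CPM in FBZ, against 440 to 1070 CPM in OxBZ. Of 76 sperm genes, 61 were higher in OxBZ than in FBZ and 1 lower, and of 28 germline genes 26 and none. Of 16 pharynx markers, 14 were lower in OxBZ and none higher. The part of tissue or stage in this comparison was not tested. Against all 4 drugs at once, 2607 were higher (14.9%) and 1826 lower (10.4%). This split turned on the scaling: with unscaled library totals the median gene shifted to -0.21 against FBZ and to between -0.15 and -0.31 against the other drugs, 3060 genes were higher and 5880 lower than in FBZ, which put 34.2% of calls on the higher side in place of 50.8%, and 870 genes were higher than under all 4 drugs.

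The cyp-35 family did not have its highest level under OxBZ. Summed cyp-35 levels were 838, 747 and 771 CPM in OxBZ, against 680, 747 and 614 CPM in FBZ, 1650 to 1930 CPM in ABZ, 512 to 881 CPM in MBZ and 1460 to 1650 CPM in TBZ. Of all genes, 29.5% were higher and 28.6% lower in OxBZ than in FBZ, and 14.9% were higher than in all other drugs. Of the 10 cyp-35 genes, 4 were higher and 1 lower in OxBZ than in FBZ, and 2 were higher in OxBZ than in all other drugs. cyp-35A1 was one of them, with 49.4 to 60.4 CPM in OxBZ, against 11.5, 14.8 and 11.4 CPM in FBZ and means of 26.4, 7.71 and 4.61 CPM in ABZ, MBZ and TBZ. cyp-35C1 had a log2 difference of 0.12 ± 0.32 from FBZ (SE; edgeR adjusted p = 0.776). Single genes outside that family separated OxBZ from the other drugs. bcmo-1, related to carotenoid-cleaving oxygenases, had 175, 123 and 172 CPM in OxBZ, against 1.42, 2.27 and 2.01 CPM in FBZ and 0.764, 0.395 and 0.924 CPM in DMSO. Its mean was 0.598, 1.43 and 0.867 CPM in ABZ, MBZ and TBZ, all below its OxBZ levels (OxBZ minus FBZ 6.37 ± 0.36, SE; edgeR adjusted p = 6.32e-08). cyp-14A4, at 44.2 to 61.2 CPM in OxBZ and 0.974 to 2.0 CPM in FBZ, was higher in OxBZ by 5.13 ± 0.45 (SE; edgeR adjusted p = 2.08e-06). ugt-33 had 161 to 202 CPM in OxBZ and 12.5 to 14.6 CPM in FBZ. E02C12.10 had 488 to 582 CPM in OxBZ and 78.2 to 93.1 CPM in FBZ, and both genes were higher in OxBZ than in all other drugs. fmo-2 was lower in OxBZ than in all of them, at 8.01 to 10 CPM in OxBZ and 106 to 120 CPM in FBZ. In the other direction, C23G10.11 (-7.62), pqn-71 (-7.44) and K01D12.5 (-7.37) had the largest log2 differences below FBZ among genes with more than 3 reads in OxBZ and a symbol of their own, and they had 10, 9 and 5 reads in OxBZ.

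Proteasome levels also differed between OxBZ and the other drugs. All 14 core subunits and all 6 cap ATPases were higher in OxBZ than in each of the other 4 drugs, as were 12 of 13 other cap subunits, 8 of 8 chaperonin subunits and 23 of 31 aminoacyl-tRNA synthetases. With unscaled library totals these counts were 7, 5, 8, 6 and 19. Of all genes, 14.9% were higher in OxBZ than in all 4 drugs. The trait was not particular to these lists. It held for 13 of 22 oocyte and eggshell genes, 10 of 28 germline genes, 37 of 69 mitochondrial ribosomal proteins and 12 of 16 cytosolic chaperones. With unscaled totals these counts were 10, 8, 4 and 7. Against FBZ alone every proteasome subunit stayed higher with unscaled totals, with a median for the core of 0.49 in place of 0.71. pbs-2 had 269, 268 and 233 CPM in OxBZ, against 141, 141 and 140 CPM in FBZ and means of 152, 125 and 165 CPM in ABZ, MBZ and TBZ. The autophagy receptor gene sqst-1 did not differ detectably between OxBZ and FBZ, at 424 to 459 CPM in OxBZ and 421 to 461 CPM in FBZ (log2 difference 0.00 ± 0.26, SE; edgeR adjusted p = 0.989).

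Among the lowered groups, 29 of the 31 flp genes were lower in OxBZ than in each of the other 4 drugs, a count that held with unscaled totals, as were 52 of 77 nlp and snet genes and 24 of 45 neuronal markers (29 with unscaled totals). ida-1 had 45.2 to 50.9 CPM in OxBZ, below 141, 132 and 144 CPM in FBZ and below means of 113, 109 and 101 CPM in ABZ, MBZ and TBZ. rab-3 had 7.31 to 7.68 CPM in OxBZ, against 39.8, 37.2 and 45.4 CPM in FBZ, which was above every DMSO library too, and its log2 difference from FBZ was -2.45 ± 0.12 (SE; edgeR adjusted p = 2.05e-08). For the gut, 47 of 177 C-type lectins and 10 of 27 intestinal markers were lower in OxBZ than in all other drugs, and 1 of 14 lysozymes. Of all genes, 10.4% were lower in OxBZ than in all other drugs. lys-4 showed the reverse against FBZ, with 91.7, 102 and 88.9 CPM in OxBZ and 52.5, 49.7 and 61.1 CPM in FBZ (OxBZ minus FBZ 0.79 ± 0.17, SE; edgeR adjusted p = 0.00185).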

How the data were processed

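Total RNA of whole worms was sequenced as paired-end reads of 100 nt on an Illumina HiSeq instrument, per the labels' protocols. The authors deposited whole-number read counts for each gene, made with Subread 1.4.6 and featureCounts per the submitters' processing notes. The genome build is not given in the sources used here, nor are the annotation and the strand setting. Identifiers without a usable symbol held 1.13% of counts. OxBZ library 2 carries the drug tag "OxB" and was grouped by its title.

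The filterByExpr function, set to a minimum count of 10, removed 2911 genes, of which 170 had no read. In R 4.3.3, edgeR 4.0.16 with limma 3.58.1 fitted 1 quasi-likelihood model to the 18 libraries, with 1 mean for each group, TMM scaling and 12 residual degrees of freedom, so that the groups share 1 estimate of spread (common biological coefficient of variation 0.303). The DMSO libraries differed more among themselves than the OxBZ libraries did. A shared estimate does not allow for this, so errors and p-values against DMSO may be too small. Benjamini-Hochberg adjustment ran over the genes of a comparison, or over genes and the 4 drug pairs together for OxBZ against another drug, and calls needed an adjusted p under 0.05. The standard error (SE) was taken as the size of the log2 fold change divided by the root of its F statistic. Intervals from reads would cover counting error only, and for a gene without a read in a group only a bound against a floor of 3 counts was formed. The fits were tested on simulated data with 200 changed genes and the same spread in every group. That test does not show how the calls behave under unequal spread or with as many changed genes as were called here.

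Named genes were the 10 largest rises and falls with at least 1 CPM in a group mean and no overlap of libraries, up to 5 called members with the largest change in each list, all proteasome, tubulin and cyp-35 genes, the 5 largest differences each way from FBZ, a few fixed reporter and marker genes, and genes an earlier report of these data names. Further members, passing or not, were named after their values were seen. The gene lists and the comparison were chosen with earlier results of these data known. Alternatives were DESeq2 1.42.0, other scalings, no filter, a fit of 2 groups, a replicate block and leaving out each OxBZ, DMSO or FBZ library.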

Additional observations from a re-analysis of the deposited data

How the results depend on the processing

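Against DMSO, counts of genes higher and lower were 3879 and 3700 with median-of-ratios scaling, 3031 and 3789 with unscaled library totals, 3684 and 3578 without the low-count filter and 4206 and 4236 with DESeq2. A fit of the OxBZ and DMSO libraries alone gave 2542 and 1911, and leaving out 1 library gave 1921 to 3601 higher and 2397 to 4185 lower. That fit of 2 groups gave counts of rises that were over 1.5 times smaller for endoplasmic reticulum chaperones (2), mitochondrial chaperones (3), glutathione enzymes (4, and 5 with unscaled totals), cytosolic and mitochondrial ribosomal proteins (3 and 20), fatty acid oxidation (8) and germline genes (0), and of falls for small heat shock proteins (3) and insulin-like peptides (8). cyp-32B1 (adjusted p = 0.0559), acr-12 (0.0624), acr-25 (0.0515), pas-7 (0.0622) and mec-7 (0.117) did not pass in it, and tba-9 passed as lower with DESeq2 (0.0371). Same-numbered OxBZ and DMSO libraries deviated together with correlations of -0.5, 0.38 and 0.17, so the numbers were not taken as pairs. With the replicate number as a block, 1075 genes were higher and 947 lower. Block counts fell for lists of every kind: rises to 0 for mitochondrial ribosomal proteins, endoplasmic reticulum chaperones and oocyte genes and to 11 for aminoacyl-tRNA synthetases, and falls to 7 for neuronal markers, 15 for flp, 16 for nlp and snet, 3 for neuropeptide receptors, 30 for C-type lectins and 9 for intestinal markers. They were 9 for cyp-35, 12 for the proteasome core, 5 for the cap ATPases, 10 for the other cap subunits and 8 for lysozymes. Against FBZ, 3060 genes were higher with unscaled totals, and leaving out 1 OxBZ or FBZ library gave 3747 to 5127. Higher than all 4 drugs were 870 with unscaled totals and 1472 to 2763 without 1 OxBZ library. That last count was not taken without libraries of the other drugs. No named gene reversed its direction while called. What moved these counts was not tested. At 0.018 CPM per read, genes with a few reads per library, many of them receptors and channels, have the widest errors.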

Other observations

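Some gene families outside the lists above also moved mostly one way, beside a background of 21.2% of all tested genes higher and 21.5% lower. Families were formed by the stem of the gene symbol. Of 23 neprilysin-like peptidase (nep) genes, which cut peptides outside cells, 16 fell and none rose (median log2 fold change -1.76). nep-22 had 21.4, 23.2 and 21.2 CPM in OxBZ, against 168, 261 and 108 CPM in DMSO, without overlap (-3.03 ± 0.40, SE; edgeR adjusted p = 6.17e-05). Of 20 genes of the vacuolar proton pump (vha), which acidifies lysosomes and is made in the intestine, excretory cell and epidermis, 14 fell and 1 rose (median -0.40). vha-5 had 81.8, 84.1 and 82.6 CPM in OxBZ, against 178, 254 and 150 CPM in DMSO (-1.23 ± 0.17, SE; edgeR adjusted p = 0.000115). Of 26 bestrophin-like chloride channel (best) genes 13 fell and none rose, and of 35 pals genes, several of which respond to intracellular infection, 18 fell and 3 rose. pals-24 was one of the rises, with 85.8, 77.3 and 80.4 CPM in OxBZ and 30, 32.9 and 31 CPM in DMSO (1.37).

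Families of translation initiation and membrane traffic rose by small amounts. Of 25 initiation factor (eif) genes 21 rose and none fell (median 0.33). eif-6, which acts on the large ribosomal subunit, had 167, 165 and 142 CPM in OxBZ, against 94.9, 95.5 and 98.1 CPM in DMSO, without overlap (0.72 ± 0.08, SE; edgeR adjusted p = 1.46e-05). Of 31 vacuolar sorting (vps) genes 19 rose, among them vps-60 (0.77), a subunit of the membrane-cutting ESCRT machinery. Of 21 ubiquitin-conjugating enzyme (ubc) genes 13 rose, among them ubc-9 (0.37), the enzyme for SUMO, of 26 nucleoporin (npp) genes 15 rose, and of 29 J-domain chaperone (dnj) genes 18 rose. None of these fell. The family counts without 1 library were not computed.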
